A study of Homo sapiens with 6 samples.

Results

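The genes described here are grouped under 4 signalling pathways that cells use to talk to their neighbours: TGF-beta, BMP, Notch and Hedgehog. They were chosen by symbol from the 8529 genes of the deposited expression table. The rule took symbols starting with TGFB (without TGFBI), BMP plus a digit, BMPR, SMAD, ACVR, INHB, GDF, NOTCH, HEY or PTCH, those with JAG, DLL, HES or GLI followed by a digit, and ID1 to ID4, SMO and SUFU. It found 47 genes, of which 28 were grouped under TGF-beta and BMP, 16 under Notch and 3 under Hedgehog. The 28 include TGFBRAP1 and BMP2K, which entered by symbol alone. The RNA came from SW480, a wild-type line established from a human colorectal adenocarcinoma, grown on hydrogels of 2 kPa (the soft matrix) or 25 kPa (the stiff matrix) for 72 h. There were 3 libraries at each stiffness, from triplicate wells of this single line. Expression was given as FPKM, a fragment count scaled by transcript length and library size, so levels of different genes are compared here per length. The comparison asks whether the transcript levels of these pathways differ between cells on the soft and the stiff matrix.

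Ligands of the TGF-beta and BMP families are secreted, bind pairs of receptor kinases and act through SMAD proteins, which enter the nucleus and set the transcription of targets such as the ID genes. Notch receptors are activated by JAG and DLL ligands on a neighbouring cell, whereupon gamma-secretase releases the intracellular part of the receptor, which joins the DNA-binding protein RBPJ and switches on HES and HEY repressors. Hedgehog ligands relieve the block of PTCH on SMO, which then acts through the GLI transcription factors. In the intestine BMP signalling opposes stem cell renewal at the crypt base, Notch holds progenitors back from the secretory fate, and colorectal tumours often lose SMAD4 function.

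Promoter sequences of HES genes are shown because several genes of this family are standard Notch readouts and the data hold their levels. In the RefSeq promoters (GRCh38.p14, 250 bases before to 50 after the gene start), 37 of the 47 genes had an entry. The RBPJ motif GTGGGAA, searched on both strands, lay in 2194 of 35116 promoters (6.25%) and in those of HES1, HES4, HES5, HEYL and TGFB3. It was thus held by 4 of the 6 Notch effector genes that had a promoter entry. In the following windows, each 60 bases long and read 5′ to 3′ on the gene's strand, capitals mark the motif. The windows lie at chr3:194136036-194136095 (HES1, forward strand), chr1:1000142-1000201 (HES4, reverse strand), chr1:2530312-2530371 (HES5, reverse strand) and chr1:39639789-39639848 (HEYL, reverse strand).
HES1: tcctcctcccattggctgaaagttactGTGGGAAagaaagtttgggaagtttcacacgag
HES4: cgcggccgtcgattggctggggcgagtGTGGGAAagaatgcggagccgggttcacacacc
HES5: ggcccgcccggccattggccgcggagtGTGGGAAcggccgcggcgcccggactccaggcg
HEYL: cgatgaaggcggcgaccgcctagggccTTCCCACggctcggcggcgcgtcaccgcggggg
In HEYL the motif stood on the other strand and is printed as its reverse complement. Counted from the gene start, the motif began at position −85 in HES1, −77 in HES4, −81 in HES5 and −178 in HEYL. HES5 held a further match on the other strand, from position −224 to −218, outside the printed window. The palindromic SMAD motif GTCTAGAC lay in 71 promoters (0.202%) and in 1 of the 47 genes, the inhibitory SMAD6. Its window lies at chr15:66702176-66702235 on the forward strand, with the motif from position −12 to −5.
SMAD6: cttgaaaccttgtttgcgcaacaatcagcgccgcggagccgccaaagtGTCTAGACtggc
The GLI motif GACCACCCA lay in 83 promoters (0.236%) and in 0 of the 47. These matches describe letters in a window and are not measured binding sites.

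Transcripts of all 4 pathways were listed for SW480 cells, at very unequal FPKM. The ranking below is of listed values, and whether these give abundance was not tested. The common reference gene GAPDH was listed at only 0.32 to 3.35 FPKM. The highest mean level over the 6 libraries was that of ID2, a repressor of bHLH factors, at 77.8 FPKM. It was followed by the ligands BMP7 (53.5 FPKM), BMP4 (32.6 FPKM), INHBB (27.8 FPKM) and GDF15 (25.6 FPKM). Next came the Notch effector HES1 (21.2 FPKM), the Hedgehog factor GLI3 (18.5 FPKM) and HES6 (16.0 FPKM), then NOTCH2 (6.53 FPKM), SMAD7 (4.68 FPKM) and NOTCH1 (4.07 FPKM). ID2 and BMP7 did not separate cleanly, since the lowest ID2 library, at 55.11 FPKM, lay below the highest BMP7 library, at 70.17 FPKM. The ranges of BMP4, INHBB and GDF15 overlapped one another. Of the 47 genes, 27 had a mean of at least 1 FPKM and 20 lay below it. No filter was applied, so all 47 were tested.

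**Figure D1:**
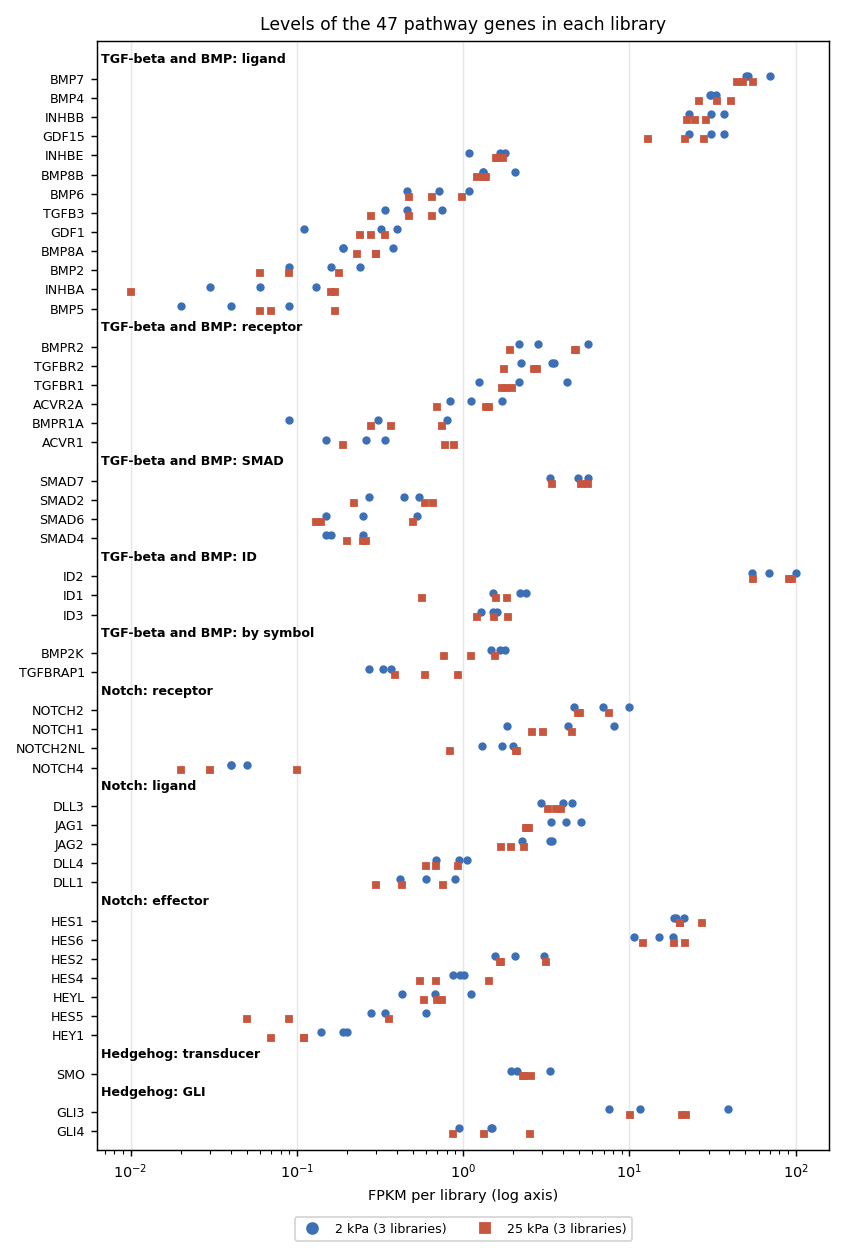
FPKM of each of the 47 genes in each library, on a log axis, with 2 kPa libraries as blue circles and 25 kPa libraries as red squares, grouped by pathway and role. The levels run from 0.01 FPKM (INHBA) to 100.86 FPKM (ID2), and for most genes the circles and squares lie among each other.

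None of the 47 genes passed the test for a difference between the matrices. By limma with Benjamini-Hochberg adjustment over all genes, 0 of 47 had an adjusted p under 0.05, against 10 of 8529 genes (0.117%), and the adjusted p of the 47 ran from 0.403 to 0.996. At an unadjusted p under 0.05, 0 of 47 were higher at 25 kPa, where 6.96% of all genes were, and 1 (JAG1) was lower, where 3.19% of all genes were. In 1 gene all stiff libraries were above all soft ones (TGFBRAP1), and in 2 genes all were below (JAG1 and HEY1). Over all genes, 11.2% were higher and 4.78% lower without overlap. The members' shares, 2.13% and 4.26%, were below or near this background. The median log2 fold change (25 kPa against 2 kPa, on log2(FPKM + 1), where added 1 shrinks the difference of low genes) was −0.03 over the 47 and 0.05 over all genes. In bulk RNA, fewer cells with a transcript and less of it per cell cannot be told apart.

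**Figure D2:**
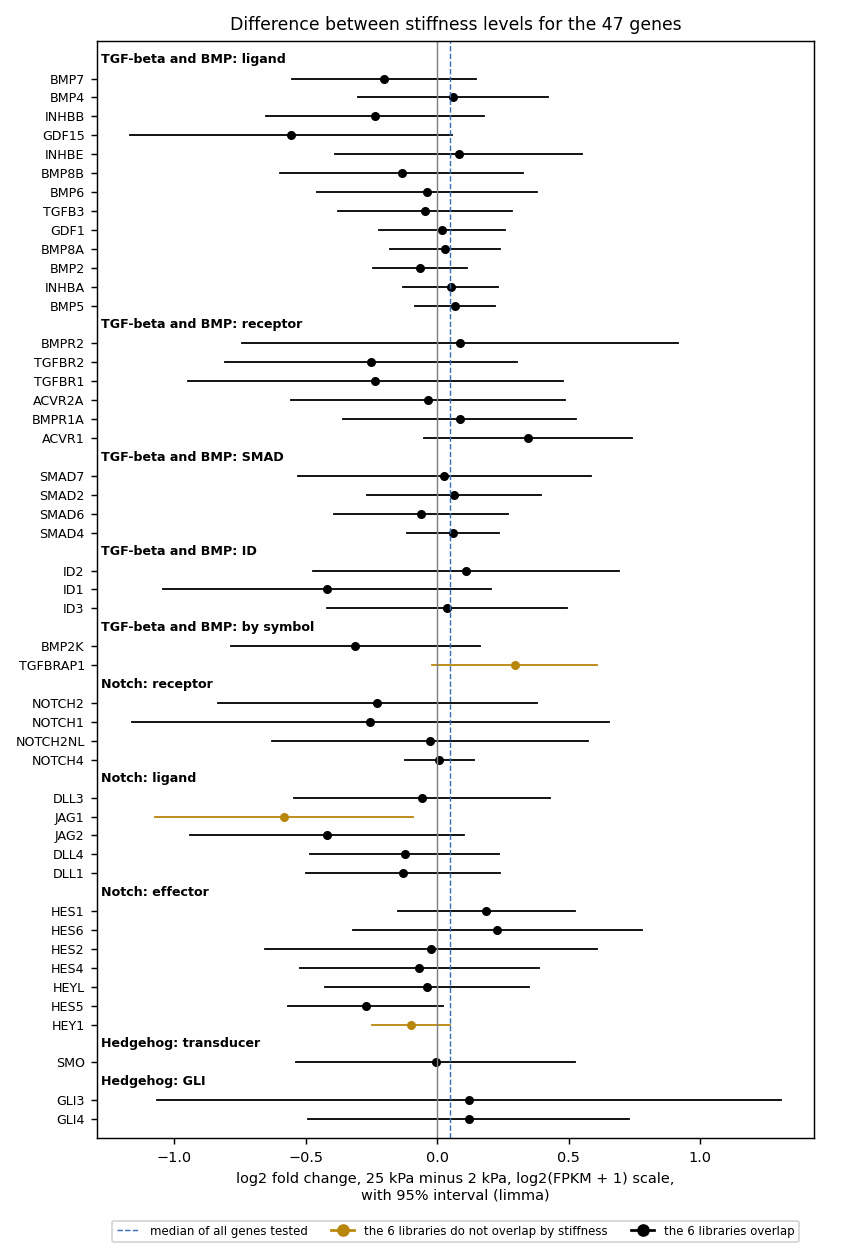
Log2 fold change (25 kPa minus 2 kPa, log2(FPKM + 1) scale) with its 95% interval from limma for each of the 47 genes. Gold marks the 3 genes whose libraries do not overlap between the stiffness levels, the dashed line is the median of all genes tested (0.05), and the interval of 1 gene, JAG1, leaves out 0.

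The balance of directions depended on the scaling and on single libraries. Of the 28 TGF-beta and BMP genes, 15 had a positive and 13 a negative fold change (46.4% lower, all genes 40.4%), with a median of 0.02. The number with a negative fold change was 20 with FPKM rescaled to equal library sums (71.4%, all genes 54.4%). It was 18 with median centring (64.3%, all genes 50.9%) and 15 with quantile normalisation (53.6%, all genes 49.3%). Without the soft replicate 1 it was 18 (64.3%, all genes 42.0%). Without the soft replicate 2 it fell to 10 (35.7%, all genes 34.3%). Of the 16 Notch genes, 3 had a positive and 13 a negative fold change (81.2% lower, where 40.4% of all genes were lower), with a median of −0.08. This balance rested on the soft library labelled replicate 2: without it, 8 of 16 Notch genes were lower, where 34.3% of all genes were. Hedgehog had 2 positive and 1 negative.

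Among the Notch ligands, which sit on the sending cell, all 5 (JAG1, JAG2, DLL1, DLL3 and DLL4) had a negative fold change, with a median of −0.13, and 1 of the 5 had an unadjusted p under 0.05. The size of that median ran from −0.07 without the stiff replicate 3 to −0.25 without the stiff replicate 1, and it was −0.33 and −0.39 with pseudocounts of 0.1 and 0.01. JAG1, the ligand gene at chr20:10637684-10673999 on the reverse strand (GRCh38), measured 4.14, 5.15 and 3.36 FPKM in the 3 soft libraries and 2.51, 2.43 and 2.40 FPKM in the 3 stiff libraries. Every soft library lay above every stiff one, and the stiff libraries were nearly equal. The means were 4.22 ± 0.897 FPKM at 2 kPa and 2.45 ± 0.0569 FPKM at 25 kPa (SD, n = 3 each), a ratio of 0.58. The log2 fold change was −0.58 with a standard error of 0.22 and a 95% interval from −1.07 to −0.09. Its unadjusted p was 0.0249 by limma and its adjusted p 0.403, so the difference did not pass the test over all genes, in which JAG1 ranked 523 by p. An exact permutation test, two-sided, gave p = 0.1, the smallest that 3 libraries against 3 allow. JAG1 shares exon positions with an antisense gene on the opposite strand, and whether the counting used strand is not given in the sources used here.

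JAG2, the other Jagged ligand, lies at chr14:105140981-105168824 on the reverse strand and shares exon positions with another gene on its own strand. It measured 3.43, 3.35 and 2.26 FPKM on the soft and 1.93, 2.33 and 1.7 FPKM on the stiff matrix. In the deposited FPKM the groups overlapped only through the lowest soft and the highest stiff library. They did not overlap under any of the 3 other scalings (equal library sums, quantile normalisation, median centring). Its log2 fold change was −0.42 with an interval from −0.94 to 0.10 and an adjusted p of 0.590. For the Delta-like ligands, the means at 2 kPa and 25 kPa were 3.82 and 3.59 FPKM for DLL3, an atypical ligand that acts inside the sending cell, 0.637 and 0.497 FPKM for DLL1, and 0.897 and 0.74 FPKM for DLL4. The adjusted p of these 3 was 0.862 or above. The 5 ligands stayed lower in each alternative analysis except the one without the soft replicate 3, in which 4 of 5 were lower. With a minimum mean of 1 FPKM, 3 of the 3 ligands left were lower.

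The Notch receptors varied widely between libraries of the same matrix. NOTCH2 measured 6.99, 9.95 and 4.67 FPKM on the soft and 5.08, 4.93 and 7.57 FPKM on the stiff matrix. NOTCH1 measured 4.29, 8.10 and 1.84 FPKM on the soft and 4.54, 2.61 and 3.03 FPKM on the stiff matrix. For both receptors the soft libraries enclosed the stiff ones. The log2 fold change of NOTCH2 was −0.23 with a standard error of 0.27 and an adjusted p of 0.852. The interval of NOTCH1 ran from −1.16 to 0.65 on the log2 scale, wide enough to hold a halving as well as a rise. NOTCH4, the receptor known from endothelium, averaged 0.0433 and 0.05 FPKM. NOTCH2NL, a partial copy of NOTCH2 whose reads can be shared with it, averaged 1.67 FPKM at both stiffness levels.

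The effectors are the HES and HEY genes, several of which are transcribed in the receiving cell when Notch is active. Of these 7, grouped by symbol, HES1 and HES6 had a positive fold change and 5 a negative one, so this is no reading of Notch output. HES1, the repressor with the printed motif, measured 21.45, 19.02 and 18.54 FPKM on the soft and 20.29, 27.53 and 20.32 FPKM on the stiff matrix. A single stiff library, replicate 2, stood above the others. The log2 fold change of HES1 was 0.19 with an interval from −0.15 to 0.52 and an adjusted p of 0.742, so a rise of up to about that upper bound could not be told from none. Without the stiff replicate 2 it was 0.05. HES6, which antagonises HES1 in neural cells, measured 18.20, 15.13 and 10.64 FPKM on the soft and 21.53, 18.66 and 12.09 FPKM on the stiff matrix, with a log2 fold change of 0.23 and an adjusted p of 0.828. Leaving out 1 library moved this from 0.03 (without the soft replicate 3) to 0.46 (without the stiff replicate 3). HES6 varied within each matrix by more than between them.

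HEY1, a repressor related to the HES proteins (chr8:79764010-79767863, reverse strand), measured 0.19, 0.20 and 0.14 FPKM on the soft and 0.11, 0.07 and 0.11 FPKM on the stiff matrix. The groups did not overlap, yet every library lay below 1 FPKM. Its log2 fold change was −0.10 with a standard error of 0.07 and an adjusted p of 0.658. The size depended on the pseudocount, at −0.49 with 0.1 and −0.82 with 0.01, and the ratio of the means was 0.547. HES5 measured 0.60, 0.34 and 0.28 FPKM on the soft and 0.36, 0.09 and 0.05 FPKM on the stiff matrix. The groups overlapped through a single stiff library, and the log2 fold change was −0.27 with an adjusted p of 0.529. The means at 2 kPa and 25 kPa were 2.22 and 2.18 FPKM for HES2, 0.947 and 0.893 FPKM for HES4, and 0.743 and 0.677 FPKM for HEYL. Among the 4 effector genes with the RBPJ motif, HES1 thus had a positive fold change and HES4, HES5 and HEYL a negative one, all with overlapping libraries.

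**Figure D3:**
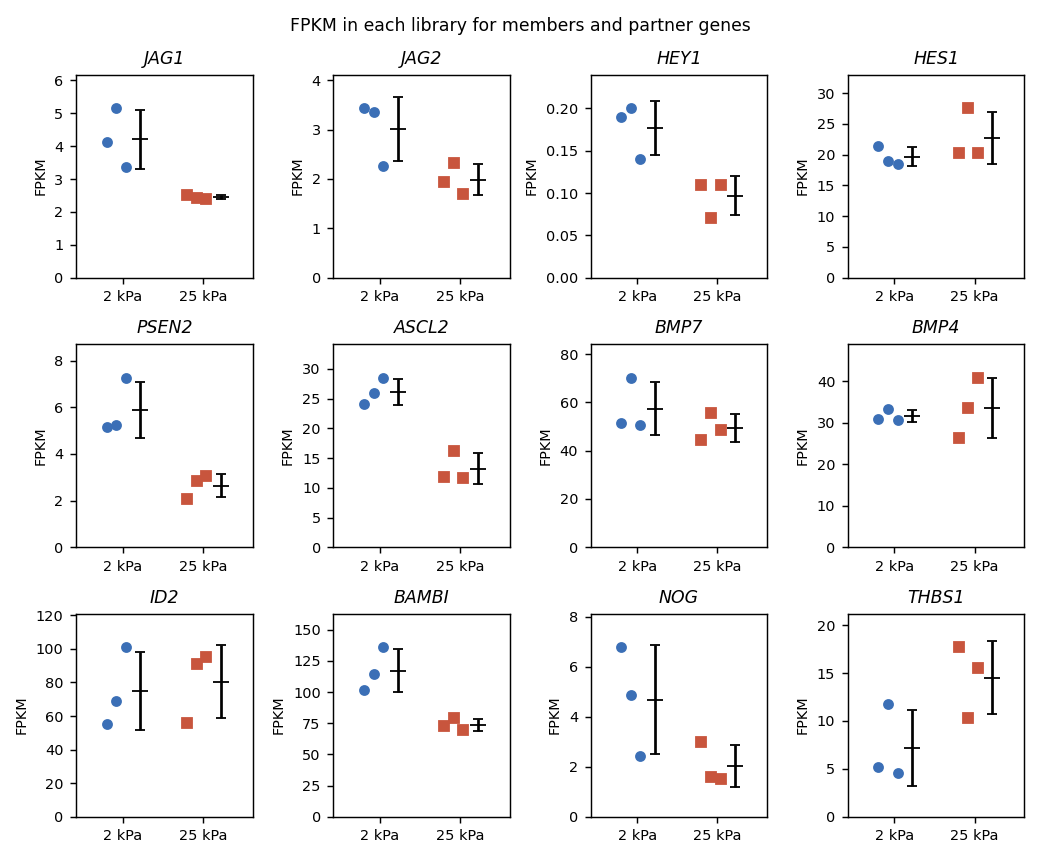
FPKM in each library at 2 kPa (blue circles) and 25 kPa (red squares) for 7 of the 47 genes and for their pathway partners PSEN2, ASCL2, BAMBI, NOG and THBS1, each panel with its own axis from 0. The black bar beside each group is the mean with its SD (n = 3). JAG1, HEY1, PSEN2, ASCL2 and BAMBI show no overlap between the groups, whereas BMP7, BMP4, ID2 and HES1 do overlap.

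The other genes of the Notch pathway came from a list of 49 (processing enzymes, ligand modifiers, coactivators and targets), of which 30 were in the table. At an unadjusted p under 0.05, 1 was higher (3.33%, against 6.96% of all genes) and 2 were lower (6.67%, against 3.19%), and 0 passed the adjusted test by limma. The median log2 fold change of the 30 was −0.01. PSEN2, a catalytic subunit of gamma-secretase, measured 5.16, 5.24 and 7.26 FPKM on the soft and 2.07, 2.82 and 3.05 FPKM on the stiff matrix. Every stiff library lay below every soft one, with a log2 fold change of −0.91 and an adjusted p of 0.205. ASCL2, an intestinal stem cell transcription factor, averaged 26.2 ± 2.23 FPKM on the soft and 13.2 ± 2.60 FPKM on the stiff matrix (SD, n = 3 each). Its groups did not overlap either, with a log2 fold change of −0.95 and an adjusted p of 0.0759, which ran from 0.0408 to 0.333 over the alternatives. NEURL1B, a ubiquitin ligase for Notch ligands, averaged 1.19 and 2.24 FPKM on the soft and stiff matrix, with an adjusted p of 0.488. All its stiff libraries lay above its soft ones. Of the 30 genes, 3 were higher and 2 lower without overlap, where 11.2% and 4.78% of all genes were.

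The TGF-beta and BMP ligands were led by BMP7, BMP4, INHBB and GDF15. BMP7, a BMP ligand, measured 51.52, 70.17 and 50.63 FPKM on the soft and 44.26, 55.76 and 48.49 FPKM on the stiff matrix. BMP4, also a BMP ligand, measured 30.92, 33.30 and 30.63 FPKM on the soft and 26.19, 33.51 and 40.77 FPKM on the stiff matrix. Both pairs of groups overlapped: the log2 fold change was −0.20 (interval −0.55 to 0.15, adjusted p of 0.735) for BMP7 and 0.06 (interval −0.30 to 0.42, adjusted p of 0.941) for BMP4. Without the soft replicate 2 the value of BMP7 was −0.05. INHBB, the activin beta B subunit, measured 30.97, 37.08 and 22.89 FPKM on the soft and 28.95, 24.71 and 22.14 FPKM on the stiff matrix, with a log2 fold change of −0.24. GDF15, a stress-induced cytokine of the family, measured 23.01, 30.87 and 36.92 FPKM on the soft and 12.88, 27.99 and 21.65 FPKM on the stiff matrix. The soft libraries of GDF15 tended to be higher but overlapped the stiff ones, with a log2 fold change of −0.56, a standard error of 0.27 and an adjusted p of 0.543. This ran from −0.26 without the stiff replicate 1 to −0.79 without the stiff replicate 2, with an unadjusted p under 0.05 by limma in 5 of 14 alternatives.

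The remaining 9 ligands were low. INHBE and BMP8B averaged 1.51 and 1.56 FPKM on the soft and 1.64 and 1.31 FPKM on the stiff matrix. BMP6, TGFB3, GDF1, BMP8A, BMP2, INHBA and BMP5 had means below 1 FPKM over the 6 libraries. BMP8A and BMP8B are near-identical copies, and GDF1 shares exon positions with a gene on its own strand, so their values are uncertain. TGFB3 was the single TGF-beta ligand in the table, at means of 0.517 and 0.467 FPKM.

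Receptors of both types were present in the table. TGFBR2, the type II receptor that binds TGF-beta, measured 3.43, 3.52 and 2.24 FPKM on the soft and 1.77, 2.68 and 2.78 FPKM on the stiff matrix. TGFBR1, its type I partner, measured 1.24, 4.25 and 2.16 FPKM on the soft and 1.97, 1.72 and 1.82 FPKM on the stiff matrix. Both overlapped between matrices, and the high soft TGFBR1 value came from replicate 2. BMPR2, the BMP type II receptor, measured 2.81, 5.68 and 2.17 FPKM on the soft and 4.72, 1.92 and 4.76 FPKM on the stiff matrix. ACVR1, a type I receptor for BMPs and activins, measured 0.34, 0.26 and 0.15 FPKM on the soft and 0.78, 0.88 and 0.19 FPKM on the stiff matrix. For ACVR1, stiff replicates 1 and 2 were high and stiff replicate 3 lay among the soft libraries, with a log2 fold change of 0.35 and an adjusted p of 0.562. BMPR1A and ACVR2A, a type I and a type II receptor, had intervals from −0.36 to 0.53 and from −0.56 to 0.49.

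Among the SMAD genes, SMAD7, which blocks the receptors as a feedback inhibitor, had the highest level, at 3.33, 5.67 and 4.90 FPKM on the soft and 5.14, 5.61 and 3.44 FPKM on the stiff matrix. The groups overlapped fully, with a log2 fold change of 0.03 and an interval from −0.53 to 0.58. SMAD4, the common SMAD that partners the activated ones, was listed at low values throughout, at 0.15, 0.25 and 0.16 FPKM on the soft and 0.26, 0.25 and 0.20 FPKM on the stiff matrix. It shares exon positions with another gene on its own strand. SMAD2, which transmits TGF-beta and activin signals, measured 0.22 to 0.66 FPKM, and SMAD6, the BMP-side inhibitor with the printed SMAD motif, 0.13 to 0.53 FPKM.

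The ID genes, direct BMP targets, showed no difference that passed the test. ID2 measured 55.11, 68.85 and 100.86 FPKM on the soft and 55.78, 90.94 and 94.99 FPKM on the stiff matrix. The groups overlapped almost completely, with a log2 fold change of 0.11, a standard error of 0.26, an interval from −0.47 to 0.69 and an adjusted p of 0.932. ID1 measured 2.40, 2.19 and 1.52 FPKM on the soft and 1.57, 1.83 and 0.57 FPKM on the stiff matrix, with an adjusted p of 0.667. ID3 averaged 1.47 and 1.54 FPKM. The ID genes thus did not share a direction.

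A pair of genes entered by symbol alone. TGFBRAP1, an adaptor protein linked to the TGF-beta receptor and to endosomal tethering (chr2:105264391-105330034, reverse strand), measured 0.27, 0.33 and 0.37 FPKM on the soft and 0.59, 0.39 and 0.93 FPKM on the stiff matrix. The groups did not overlap, although the highest soft and lowest stiff library were close, and they did overlap under each of the 3 other scalings (equal library sums, quantile normalisation, median centring). Its log2 fold change was 0.29 with a standard error of 0.14, and its adjusted p was 0.523. With pseudocounts of 0.1 and 0.01 the value was 0.74 and 0.88. BMP2K, a kinase first found as BMP-inducible, measured 1.78, 1.66 and 1.47 FPKM on the soft and 1.56, 1.11 and 0.77 FPKM on the stiff matrix, with an adjusted p of 0.682.

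Of 50 further TGF-beta and BMP pathway genes (extracellular antagonists, latency proteins, co-receptors, SMAD regulators), 25 were in the table. At an unadjusted p under 0.05, 2 were higher (8.0%, against 6.96% of all genes) and 4 lower (16.0%, against 3.19%), 0 passed the adjusted test by limma, and the median log2 fold change was 0.02. BAMBI, a pseudoreceptor that dampens TGF-beta and BMP signals, measured 101.42, 114.18 and 135.80 FPKM on the soft and 72.63, 79.04 and 69.40 FPKM on the stiff matrix. No stiff library reached a soft one. Its log2 fold change was −0.65 with a standard error of 0.13, an unadjusted p of 0.000903 by limma and an adjusted p of 0.138. NOG, the secreted BMP antagonist noggin, measured 6.77, 4.85 and 2.41 FPKM on the soft and 3.0, 1.57 and 1.49 FPKM on the stiff matrix, with a log2 fold change of −0.87 and an adjusted p of 0.434. FSTL3, an activin-binding antagonist, averaged 8.84 and 5.28 FPKM (−0.62, adjusted p of 0.405, no overlap). LTBP3, a latency protein for TGF-beta, averaged 5.01 and 2.01 FPKM (−0.97, adjusted p of 0.490). The other direction held for THBS1, an activator of latent TGF-beta, at 7.15 and 14.5 FPKM (1.00, adjusted p of 0.333), and for SOSTDC1, a BMP antagonist, at 0.23 and 0.567 FPKM (0.34, adjusted p of 0.426).

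Of 25 target genes listed for the TGF-beta and BMP pathways, 17 were in the table and 16 of these are described, so the values below are those of single genes and no balance of directions is given for the list. MSX1, a homeobox BMP target, measured 37.39, 42.98 and 39.95 FPKM on the soft and 137.71, 155.9 and 117.67 FPKM on the stiff matrix. The groups lay far apart. MSX1 rose from a mean of 40.1 ± 2.80 FPKM at 2 kPa to 137 ± 19.1 FPKM at 25 kPa (SD, n = 3 each), a log2 fold change of 1.74 with an adjusted p of 0.00121 by limma, and it stayed past the threshold in 14 of 14 alternatives. CTGF, a matricellular target, averaged 3.44 and 11.9 FPKM (1.58, adjusted p of 0.165), and ACTA2, smooth muscle actin, 1.17 and 2.35 FPKM (0.66, adjusted p of 0.421). These 3 are given because their unadjusted p by limma was under 0.05, so they do not show the direction of the list. Others of the 16 had fold changes of either sign.

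None of the 3 Hedgehog genes had an unadjusted p under 0.05 by limma over all 6 libraries. SMO, the transducer, measured 1.94, 3.34 and 2.10 FPKM on the soft and 2.32, 2.31 and 2.55 FPKM on the stiff matrix. The soft libraries of SMO enclosed the stiff ones, with a log2 fold change of −0.01, a standard error of 0.23 and an interval from −0.54 to 0.52. GLI3, the factor that mainly represses targets when the pathway is off, measured 11.62, 39.01 and 7.50 FPKM on the soft and 20.78, 10.07 and 21.88 FPKM on the stiff matrix. The soft replicate 2 of GLI3 was far above the other soft libraries. The log2 fold change was 0.12 with a standard error of 0.52 and an interval from −1.07 to 1.31. Without that library it was 0.77, with an unadjusted p of 0.0458 by limma and an adjusted p of 0.436. GLI4, a zinc finger gene named for its resemblance to GLI, measured 1.48, 1.49 and 0.95 FPKM on the soft and 1.33, 2.54 and 0.87 FPKM on the stiff matrix. Like JAG2, it shares exon positions with another gene on its own strand. The stiff libraries of GLI4 enclosed the soft ones, with a log2 fold change of 0.12, a standard error of 0.27 and an adjusted p of 0.930. Of 47 further Hedgehog pathway genes, 19 were in the table, 0 were higher and 1 was lower (5.26%, against 3.19% of all genes) at an unadjusted p under 0.05, and 0 passed the adjusted test by limma, with a median of −0.02. This was LRP2, an endocytic receptor that takes up Hedgehog and other ligands, at 2.89 and 1.18 FPKM (−0.81, adjusted p of 0.404).

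The spread within a stiffness was counted for these genes alone, without the share over all genes, so it cannot be called particular to them. In 27 of the 47, the highest library exceeded the lowest of the same stiffness more than 2-fold (18 at 2 kPa, 22 at 25 kPa), and in 11 of the 27 with a mean of at least 1 FPKM. The soft replicate 2 held the highest value of 21 of the 47 genes (44.7%), where it did so for 26.8% of all genes, and the lowest value of 1. In particular NOTCH1, NOTCH2, GLI3, TGFBR1 and BMPR2 were highest there.

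**Figure D4:**
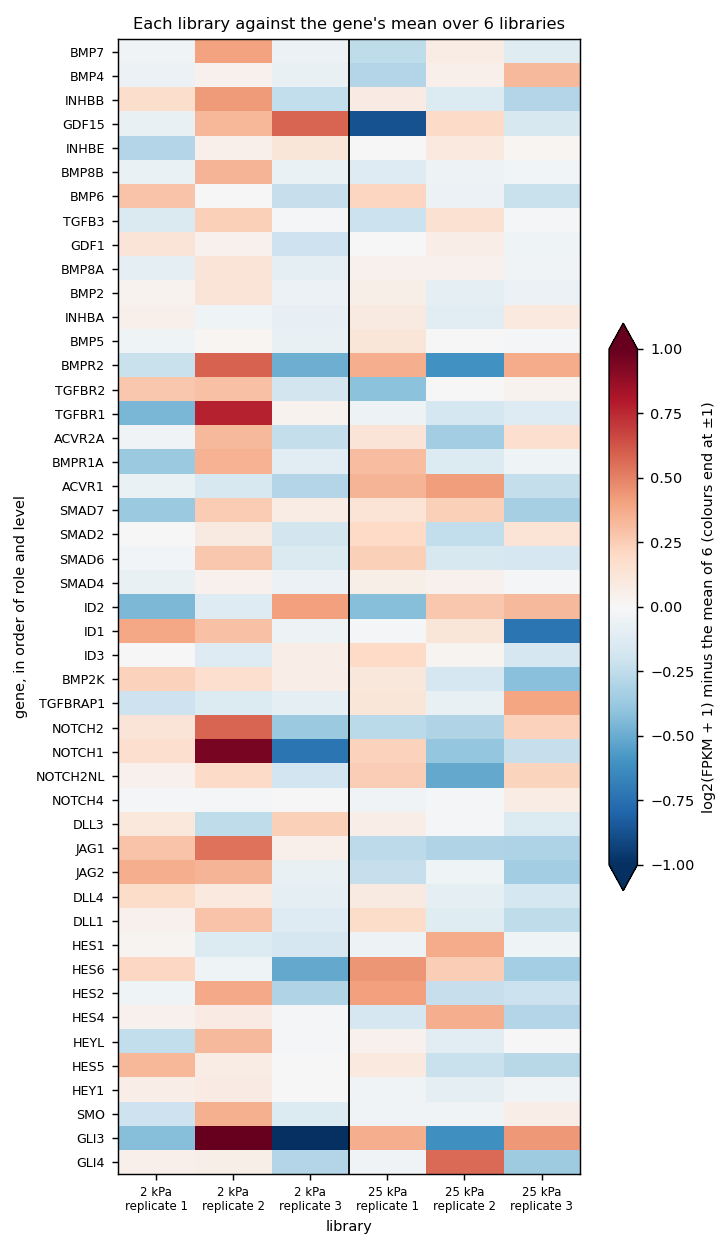
Each gene's log2(FPKM + 1) in each library minus its mean over the 6 libraries, with rows in order of role and columns by stiffness and replicate, red for above and blue for below the mean, and colours ending at ±1. The column of the 2 kPa replicate 2 holds the highest value of 21 of the 47 genes.

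The sum of FPKM per library ran from 201030 to 263028 and the median gene from 2.23 to 2.83 FPKM. Of the colorectal epithelial markers, 12 of 17 were in the table, led by KRT18, with summed levels from 4734 to 5016 FPKM on the soft and 3839 to 5049 FPKM on the stiff matrix. Of these 12, 10 had a negative fold change, where 40.4% of all genes did, and 2 had a positive one (EPCAM and CDH1). At an unadjusted p under 0.05 by limma, 4 were lower, against 3.19% of all genes. They were CDX2, CLDN4, ELF3 and ASCL2, which is also on the Notch list. Lower without overlap were 5, KRT19 being the fifth, against 4.78% of all genes. The defining factor CDX2 measured 0.57, 0.79 and 0.67 FPKM on the soft and 0.31, 0.27 and 0.07 FPKM on the stiff matrix, with an unadjusted p of 0.0037 by limma and an adjusted p of 0.224. Fibroblast markers numbered 4 of 12 and summed to 0.84 to 2.22 FPKM on the soft and 2.93 to 3.2 FPKM on the stiff matrix, with ACTA2 among them. Endothelial markers were 0 of 6 in the table, and leukocyte markers 3 of 9, at 3.98 to 5.47 and 2.39 to 3.59 FPKM on the soft and stiff matrix. At an unadjusted p under 0.05 by limma, 1 of the 4 fibroblast markers was higher (ACTA2), against 6.96% of all genes. In the leukocyte list, 1 of 3 was lower (CD14), against 3.19%. The part of these markers in the pathway values was not tested. GAPDH, a common reference gene, was listed at only 0.32 to 3.35 FPKM. Whether the listed level of a symbol gives the abundance of its transcripts in the cells was not tested.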

How the data were processed

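SW480 libraries (3 per stiffness) were assigned to 2 kPa or 25 kPa by the sample labels. The authors deposited 1 FPKM value per gene symbol and library, written with 2 decimals, without pooling. The submitters' processing notes list HISAT, StringTie, Bowtie2, RSEM and hg18, without roles or versions, and the annotation and strand setting are not given in the sources used here. The table holds 8529 genes, 0 values of 0 (lowest 0.01) and 11 symbols written as dates. The paper gives an average data volume per specimen and a nominal depth, but no mapped reads per library. Its methods also describe a small RNA purification step, whose bearing on these values is not given. The low values revealed no whole-read steps, hence mapped reads per library are unknown and precision rests on the spread between 3 libraries. Whether these came from separate cultures beyond separate wells is not given, so p-values measure only the spread between these samples, which may be technical.

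log2(FPKM + 1) was compared by limma 3.58.1 in R 4.3.3 (lmFit, eBayes with a variance trend, two-sided), with Benjamini-Hochberg adjustment over all genes and a threshold of 0.05. DESeq2, named in the study's methods, needs counts and was not run. Python 3.11.15, numpy 2.4.6, pandas 2.3.3, scipy 1.17.1 and matplotlib 3.10.9 were used, and the fit was tested on simulated data. Gene coordinates and overlaps came from GENCODE 29 (GRCh38), in which 46 of the 47 symbols matched. Exons of 13 genes overlap those of another gene, 5 on the same strand (GDF1, GLI4, JAG2, NOTCH4 and SMAD4). Promoters came from RefSeq.

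Described in full were members with an unadjusted p under 0.05 or without overlap between the groups, and the highest of each pathway. Pathway lists were given as counts, with values for genes with an unadjusted p under 0.05. Other members given by library were chosen after their values were seen. The lists share genes with one another. The result of 1 listed gene is not reported here. The members and lists were chosen with earlier results of these data known.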

Additional observations from a re-analysis of the deposited data

How the results depend on the processing

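The counts of members, their median and the fold changes of members were recomputed with pseudocounts of 0.1 and 0.01, a mean of at least 1 FPKM, 3 other scalings, no variance trend, a replicate block and each library left out. The non-overlap count was recomputed for the filter, the scalings and the libraries left out alone, and the counts for partner and marker lists, the within-stiffness spread and the highest library were not recomputed. The number of members passing the adjusted test stayed 0 in all of them, and the median log2 fold change of the members ran from −0.113 to 0.058 over the libraries left out. Members lower at an unadjusted p under 0.05 numbered 2 with equal library sums, 3 with quantile normalisation, 2 with median centring, 2 without a trend and 0 to 3 with a library left out (4.67%, 5.29%, 4.58%, 3.29% and 2.27% to 3.51% of all genes), and members higher 0 to 1 with a library left out (5.02% to 8.5% of all genes). Members without overlap numbered 5 with median centring (10.6%, all genes 14.9%), 1 with a mean of at least 1 FPKM (3.7%, all genes 18.5%) and 6 to 10 with a library left out (12.8% to 21.3%, all genes 22.7% to 30.1%), where fewer libraries are compared. JAG1 kept its direction in 14 of 14 alternatives, from −0.76 to −0.46, with an unadjusted p under 0.05 in 10 of them (2 of 6 with a library left out) and an adjusted p from 0.243 to 0.711. Small differences changed sign: ID2 to −0.0145 and BMP4 to −0.0623 with equal library sums, BMP4 to −0.0224 with quantile normalisation, and SMO to 0.000517 and 0.00191 with pseudocounts of 0.1 and 0.01. With a library left out the log2 fold change ran from −0.0867 to 0.35 for ID2, −0.0896 to 0.22 for BMP4, −0.47 to 0.00636 for NOTCH2, −0.35 to 0.77 for GLI3, −0.11 to 0.17 for SMO, −0.13 to 0.33 for GLI4, −0.29 to −0.05 for BMP7, 0.05 to 0.26 for HES1 and 0.03 to 0.46 for HES6. Where all 47 members were tested, the fewest with a negative fold change were 18, without the soft replicate 2 (38.3%, all genes 34.3%). The most were 34, with equal library sums (72.3%, all genes 54.4%). With a mean of at least 1 FPKM they numbered 17 of 27 (63.0%, all genes 38.2%).

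Same-numbered libraries of the 2 stiffness levels correlated at 0.115, −0.267 and −0.125 in their deviations from the group means. Differently numbered ones correlated at −0.238 to 0.294. The same-numbered libraries thus did not stand out. Whether they were handled together is not given, and these correlations cannot decide it, since deviations within a group are not independent. With the replicate block 3 members were lower (6.38%, all genes 2.78%) and 1 higher (2.13%, all genes 5.58%) at an unadjusted p under 0.05, and 0 passed the adjusted test. The mapped reads of each library are unknown, so no detection limit can be given for genes below 1 FPKM.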
